A study of Homo sapiens with 60 samples.

Results

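The 10 genes described here encode enzymes of the synthesis, elongation and desaturation of fatty acids and, with SREBF1, a regulator of them. They were measured in HT29, a cell line established from a colorectal adenocarcinoma. They were chosen by name as the rows for SREBF1, ACSS2, ACLY, ACACA, FASN, SCD, ELOVL6, ELOVL5, FADS1 and FADS2, so 10 of the 60675 genes in the count table. RNA was sequenced from 20 groups of 3 libraries, 60 in all, after 24 h of treatment. One group received wortmannin (10 µM), which inhibits phosphoinositide 3-kinase and was the positive control. Another 18 groups received the water extract of a herbal medicine: Coptidis Rhizoma at 290 (high), 58 (medium) or 11.6 µg/mL (low), and each of 5 others at 500 (high), 100 (medium) or 20 µg/mL (low). Those 5 were Zingiberis Rhizoma Recens (fresh ginger in what follows), Zingiberis Rhizoma (ginger), Pinelliae Tuber, Scutellariae Radix and Zizyphi Fructus. The high dose of Coptidis Rhizoma was set at 20% inhibition of the cells. The last group received DMSO vehicle, for which the sample labels give 0.1% and the series text 2%. All groups are the same cell line, so the data describe 1 tumour and no normal tissue. Whether replicate libraries stem from separate cultures is not stated in the labels. The p-values therefore reflect the spread between libraries alone, which may be technical.

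Fatty acids are built in the cytosol from acetyl-CoA. ATP citrate lyase (ACLY) makes that acetyl-CoA from citrate, and acetyl-CoA synthetase 2 (ACSS2) makes it from acetate. Acetyl-CoA carboxylase alpha (ACACA) turns it into malonyl-CoA in the committed step, and fatty acid synthase (FASN) joins these units into palmitate. ELOVL6 lengthens palmitate, and stearoyl-CoA desaturase (SCD) places the first double bond to make oleate and palmitoleate. ELOVL5, FADS1 and FADS2 lengthen and desaturate the polyunsaturated fatty acids taken up from the diet. SREBF1 encodes SREBP-1, a transcription factor that is released from its membrane anchor by proteolysis and that acts on the genes of this pathway, together with the related factor SREBP-2, which acts mainly on cholesterol synthesis. Factors of this family are known to act beside NF-Y, which binds CCAAT, and Sp1, which binds GC boxes.

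Sequences upstream of a RefSeq transcription start are shown for 3 of the 4 members that were called higher with Scutellariae Radix and lower with Coptidis Rhizoma. ELOVL6, which was called only with Coptidis Rhizoma, is shown too. ACACA and SREBF1, also called only with Coptidis Rhizoma at the high against the low dose, are not shown. The sequences come from RefSeq promoter windows on GRCh38.p14, reaching from 250 bases before to 50 bases after a start. They are cut to the stretch that overlaps no exon in GENCODE 29. The stretch shown ends 109 bases before the start for SCD, 61 for ELOVL6 and 47 for ACSS2, while that of ACLY reaches its start. Capitals mark CCAAT on either strand. SCD is shown at chr10:100346983-100347123 on the plus strand, ACLY at chr17:41919023-41919272 on the minus strand, ACSS2 at chr20:34874739-34874941 on the plus strand and ELOVL6 at chr4:110198677-110198841 on the minus strand. The stretches of ACLY, ACSS2 and ELOVL6 lie inside the span of the gene in GENCODE 29, so the starts after them are not its outermost ones.
SCD: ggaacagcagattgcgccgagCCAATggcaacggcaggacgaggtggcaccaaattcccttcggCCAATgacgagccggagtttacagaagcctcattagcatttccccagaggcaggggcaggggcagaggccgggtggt
ACLY: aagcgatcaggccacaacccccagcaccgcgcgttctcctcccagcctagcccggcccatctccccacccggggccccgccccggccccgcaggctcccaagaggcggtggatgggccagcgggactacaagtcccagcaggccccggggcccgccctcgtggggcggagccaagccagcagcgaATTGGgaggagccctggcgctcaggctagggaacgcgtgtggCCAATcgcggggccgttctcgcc
ACSS2: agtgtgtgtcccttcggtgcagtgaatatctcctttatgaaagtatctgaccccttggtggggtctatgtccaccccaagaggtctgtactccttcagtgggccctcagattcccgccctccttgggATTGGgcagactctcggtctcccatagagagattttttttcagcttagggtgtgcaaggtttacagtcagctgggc
ELOVL6: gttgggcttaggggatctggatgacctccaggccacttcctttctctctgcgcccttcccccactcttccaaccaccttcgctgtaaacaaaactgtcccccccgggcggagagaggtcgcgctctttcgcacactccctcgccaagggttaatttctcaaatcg
The table holds windows for 9 of the 10 members, with 14 starts between them. FASN is named only. In the windows of 300 bases, CCAAT occurred in 6 of these 9 members, against 34.6% of all 35116 promoters. SCD had it 229 and 186 bases before the start, ACLY 65 and 23 bases before the first of its 2 starts, and ACSS2 123 bases before its first. The second start of ACLY, not shown, had 2 matches as well. The second of ACSS2, not shown either, had none, but 3 GC boxes. ACACA had CCAAT 226 bases before a start, and 155 and 136 bases before another. ELOVL5 had it 122 and 68 bases before its start, and ELOVL6 and SREBF1 had none. CCAAT was thus not limited to the members called with both extracts. The GC box GGGCGG occurred in 8 of the 9, against 45.0% of all promoters, and the E-box CANNTG in 5, against 68.7%. The sterol response element searched as TCACNCCAC occurred in none of the 9 and in 1.13% of all promoters. All motifs were searched on both strands. CANNTG can share letters with CCAAT, and members with several starts had more windows to match in. These matches are descriptions of letters and not of binding.

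SCD was the most abundant member, and ELOVL5 and FADS2 of the polyunsaturated branch had few counts or almost none, while FADS1 was low but present in every library. Levels between genes are given as counts per 1e6 counts (CPM) per kb of exonic length, since longer genes collect more reads. On that scale the median level over 60 libraries was 336 for SCD, 113 for FASN, 73.1 for ACLY, 42.3 for ACACA, 20.3 for SREBF1, 10.4 for ELOVL6, 4.02 for ACSS2 and 0.573 for FADS1. Each of these neighbours in the order stood in this order in all 60 libraries, except FASN and ACLY, which did so in 59. The exception was in Coptidis Rhizoma high, where the levels per kb of FASN and ACLY overlapped between libraries. FADS2 had between 0 and 15 counts per library (median 6). ELOVL5 had 10 counts in all libraries together and was at 0 in 52, in which a count of 0 allows at most 0.0871 to 0.270 CPM (3 counts of each library's total, counting error only). ELOVL5 did not pass the filter on low counts, so 9 of the 10 members were tested. No fold change is given for FADS2 or ELOVL5.

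**Figure D1:**
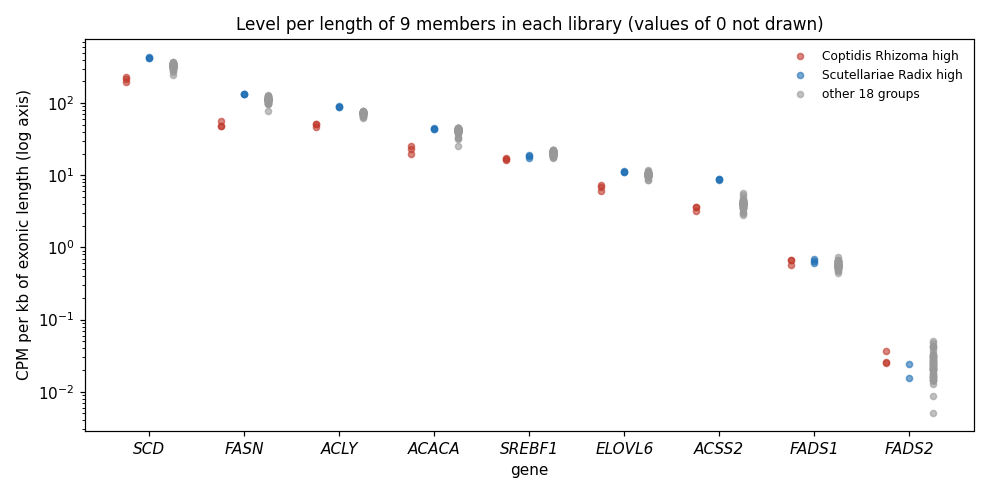
Level of 9 members per kb of exonic length (CPM per kb, log axis), 1 point per library, with Coptidis Rhizoma high on the left of each gene, Scutellariae Radix high in the middle and the other 18 groups on the right. SCD is highest, with a median of 336 over all libraries, and FADS2 lowest of those drawn; values of 0 are not drawn.

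In GENCODE 29 on GRCh38, SREBF1 lies at chr17:17810399-17837002 on the minus strand, ACLY at chr17:41866908-41930542, ACACA at chr17:37084988-37406818 and FASN at chr17:82078333-82098332, also on the minus strand. SCD lies at chr10:100347124-100364834 and ACSS2 at chr20:34872146-34927962, both on the plus strand, and ELOVL6 at chr4:110045846-110199199 on the minus strand. FADS1 (chr11:61799625-61829318, minus strand) and FADS2 (chr11:61792980-61867354, plus strand) overlap each other, and ELOVL5 lies at chr6:53267398-53349179 on the minus strand. Values are summed over all exons of a gene. SREBF1 overlaps RAI1, ACSS2 overlaps GGT7 and ACACA overlaps C17orf78, each a protein-coding gene on the other strand. The library kit keeps strand, but the sources used here do not state the strand setting of the counting, so reads from such pairs may have been assigned to either gene. FASN and SCD overlap no annotated gene.

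Depth ran between 11.1 M and 34.4 M counts per library (median 23.4 M; M stands for 1e6), and each comparison tested 16609 genes. All 10 colon epithelium markers were detected in every library, with KRT8 at a median of 6319 CPM, KRT18 at 3531 CPM, LGALS4 at 584 CPM and EPCAM at 501 CPM. CDX1, CDX2 and CEACAM5 were low, at medians of 1.10, 5.87 and 6.47 CPM. Of 10 markers of other cell types, the summed level was 6.92 to 15.4 CPM per library. CD68 (median 7.89 CPM), PECAM1 (1.72 CPM) and COL1A1 (1.25 CPM) were at 0 in no library. ADIPOQ was at 0 in all 60 libraries, COL1A2 in 58, CD3E in 57, ALB in 55, PTPRC in 38 and VWF in 28. The sample descriptions hold codes whose first part groups the libraries into sets: vehicle alone, wortmannin alone, fresh ginger with ginger, Scutellariae Radix with Pinelliae Tuber, and Zizyphi Fructus with Coptidis Rhizoma. Neither an extract nor wortmannin thus shares a set with vehicle, and in comparisons with vehicle the effects of set and of treatment cannot be told apart. The 3 doses of an extract do share one. Ribosomal-protein genes took 6.32 to 8.23% of the counts in 4 single libraries (replicate 3 of Zizyphi Fructus high, replicate 2 of ginger high, replicate 1 of fresh ginger low and replicate 1 of vehicle) and 6.43 to 7.24% in the 3 libraries of Coptidis Rhizoma high, against 4.95 to 5.85% in the other 53 libraries.

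Coptidis Rhizoma at the high dose lowered most of the pathway. Of the 9 members tested, 7 were lower at the high dose than at the low dose and none was higher, in a comparison that called 52.3% of all genes tested and called 25.3% of them lower. The 7 were the regulator SREBF1, both suppliers of acetyl-CoA, ACACA, FASN, the elongase ELOVL6 and the desaturase SCD. FADS1 and FADS2 were not called. The median change of the 9 members was -0.52 on the log2 scale, against 0.00148 for all genes. In bulk RNA, fewer cells of a kind and less RNA per cell cannot be told apart.

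FASN showed the largest change of the members called in this comparison. It had 455, 529 and 455 CPM at the high dose of Coptidis Rhizoma, against 1066, 1030 and 1043 CPM at the low dose. The 3 high-dose libraries lay below all 57 others, which ran from 718 to 1273 CPM, so the groups did not overlap. The log2 change was -1.13 ± 0.09 (approximate SE), or 0.458-fold (adjusted p = 5.34e-15, edgeR quasi-likelihood test). The share of all genes that lay outside all 57 other libraries in this way was not counted, here or for the groups that follow.

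ACACA, the enzyme before FASN, followed with 259, 306 and 328 CPM at the high dose, against 574, 522 and 538 CPM at the low dose. Its log2 change was -0.87 ± 0.11 (edgeR adjusted p = 5.19e-09), and the groups did not overlap. The highest of these high-dose values was only just under the lowest of the 57 other libraries, 331 CPM in Zizyphi Fructus high replicate 3. SCD had 1071, 1167 and 1224 CPM at the high dose and 1843, 1689 and 1828 CPM at the low dose, a log2 change of -0.63 ± 0.07 (edgeR adjusted p = 2.02e-10). ELOVL6 had 44.5, 50.3 and 53.5 CPM at the high dose and 78.1, 72.3 and 75.9 CPM at the low dose, a log2 change of -0.61 ± 0.06 (edgeR adjusted p = 4.84e-12). For SCD and ELOVL6 too, the high-dose libraries were below all 57 others.

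The acetyl-CoA suppliers moved by unequal amounts. ACLY had 245, 267 and 272 CPM at the high dose of Coptidis Rhizoma, against 383, 367 and 378 CPM at the low dose, a log2 change of -0.52 ± 0.05 (edgeR adjusted p = 3.41e-13). ACSS2 had 19.3, 17.1 and 19.5 CPM at the high dose, against 22.3, 22.6 and 21.8 CPM at the low dose, a log2 change of -0.26 ± 0.07 (edgeR adjusted p = 0.00139). ACLY was below all 57 other libraries, while ACSS2 was below its own low dose but inside the range of other groups. The regulator SREBF1 had 134, 142 and 131 CPM at the high dose and 169, 165 and 172 CPM at the low dose, a log2 change of -0.32 ± 0.06 (edgeR adjusted p = 3.71e-05). FADS1 did not pass the test, with 5.84, 6.93 and 6.77 CPM at the high dose and 6.53, 5.58 and 5.87 CPM at the low dose (log2 change 0.13 ± 0.10, edgeR adjusted p = 0.286).

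Against the medium dose, too, the same 7 members were lower at the high dose, where 46.5% of all genes were called and 22.2% were called lower. Their log2 changes ran from -0.97 for FASN to -0.17 for ACSS2. The high-dose libraries are the same as in the comparison with the low dose, so the shared calls are not independent. Medium against low dose called 0 of the 9 members and 1.31% of all genes, with 1 member at an unadjusted p under 0.05 and 0 by DESeq2. FASN had 932, 941 and 941 CPM at the medium dose, each below the 3 low-dose libraries, but its log2 change of -0.16 ± 0.09 did not pass (edgeR adjusted p = 0.688). It passed when only the 6 libraries compared were fitted (adjusted p = 0.00728). ACACA had 509, 495 and 514 CPM at the medium dose and ACLY 353, 347 and 350 CPM, also below every low-dose library and also not called. The call of ACSS2 against the medium dose ended in 6 of its alternatives. These were library totals alone (edgeR adjusted p = 0.632), no low-count filter (0.204) and the DESeq2 Wald test (adjusted p = 0.0649). The others were the edgeR fits without replicate 2 of the high dose (0.282), replicate 2 of the medium dose (0.191) or replicate 3 of the medium dose (0.0764).

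Scutellariae Radix at the high dose raised 4 members. SCD, ACSS2, ACLY and FASN were higher at the high dose than at the low dose and none was lower, where 16.3% of all genes tested were called and 7.92% were called higher. The median change of the 9 members was 0.25 on the log2 scale, against -0.01 for all genes. ACSS2 moved most, with 48.1, 46.7 and 48.2 CPM at the high dose, against 24.5, 21.7 and 23.5 CPM at the low dose. Its log2 change was 1.04 ± 0.07, or 2.06-fold (edgeR adjusted p = 6.07e-18). The 3 high-dose libraries lay above all 57 others, the highest of which had 30.6 CPM.

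ACLY had 481, 468 and 464 CPM at the high dose of Scutellariae Radix and 394, 368 and 379 CPM at the low dose, a log2 change of 0.31 ± 0.05 (edgeR adjusted p = 2.69e-06). SCD had 2295, 2246 and 2366 CPM at the high dose and 1886, 1832 and 1764 CPM at the low dose, a log2 change of 0.33 ± 0.07 (edgeR adjusted p = 4.96e-04). Both genes were higher in these 3 libraries than in any of the 57 others. FASN had 1268, 1273 and 1259 CPM at the high dose, against 1078, 1105 and 1012 CPM at the low dose, and was likewise above all other libraries. Its log2 change of 0.25 ± 0.09 passed only narrowly (edgeR adjusted p = 0.0472). That call ended in 9 of 13 alternatives, the linear trend not counted. Among them were each of the 6 fits that left out 1 library of the groups (adjusted p from 0.0763 to 0.193) and the replicate block (0.0508).

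The other members were not called at the high against the low dose of Scutellariae Radix in the model of all libraries, though 3 passed in at least 1 alternative. SREBF1 had 139, 153 and 147 CPM at the high dose and 160, 170 and 163 CPM at the low dose, so the groups did not overlap, with a log2 change of -0.17 ± 0.06 (edgeR adjusted p = 0.0695). It passed in 4 alternatives. Among these were the linear trend on log10 dose (adjusted p = 0.0248) and leaving out the 4 libraries with a high ribosomal-protein share (0.0435). ELOVL6 had 79.9, 80.1 and 84.6 CPM at the high dose and 76.1, 76.0 and 75.2 CPM at the low dose (log2 change 0.11 ± 0.06, edgeR adjusted p = 0.264), and passed when only the libraries compared were fitted (adjusted p = 0.0475). ACACA had 569, 573 and 587 CPM at the high dose and 584, 550 and 510 CPM at the low dose, so these groups overlapped (log2 change 0.07 ± 0.11, edgeR adjusted p = 0.751). FADS1 had 6.31, 6.73 and 6.96 CPM at the high dose and 5.23, 5.43 and 5.83 CPM at the low dose, again with no overlap (log2 change 0.27 ± 0.10, edgeR adjusted p = 0.0603), and it passed without the 4 libraries with a high ribosomal-protein share (adjusted p = 0.0349).

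SCD, ACSS2 and ACLY were called at the high against the medium dose of Scutellariae Radix, where 5.09% of all genes were called and 2.46% were called higher, with log2 changes of 0.32, 1.07 and 0.24. FASN had 992, 1077 and 1050 CPM at the medium dose (log2 change 0.29 ± 0.09, edgeR adjusted p = 0.0503). It passed in 4 alternatives: the DESeq2 Wald test (adjusted p = 0.0350), no low-count filter (4.91e-04), only the libraries compared (1.66e-04), and without the 4 libraries with a high ribosomal-protein share (0.00169). ACSS2 had 22.8, 21.5 and 24.1 CPM at the medium dose, inside the range of the low dose or next to it. Medium against low dose called 0 of 9 members and 3.35% of all genes, with 0 members at an unadjusted p under 0.05 and 0 by DESeq2.

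**Figure D2:**
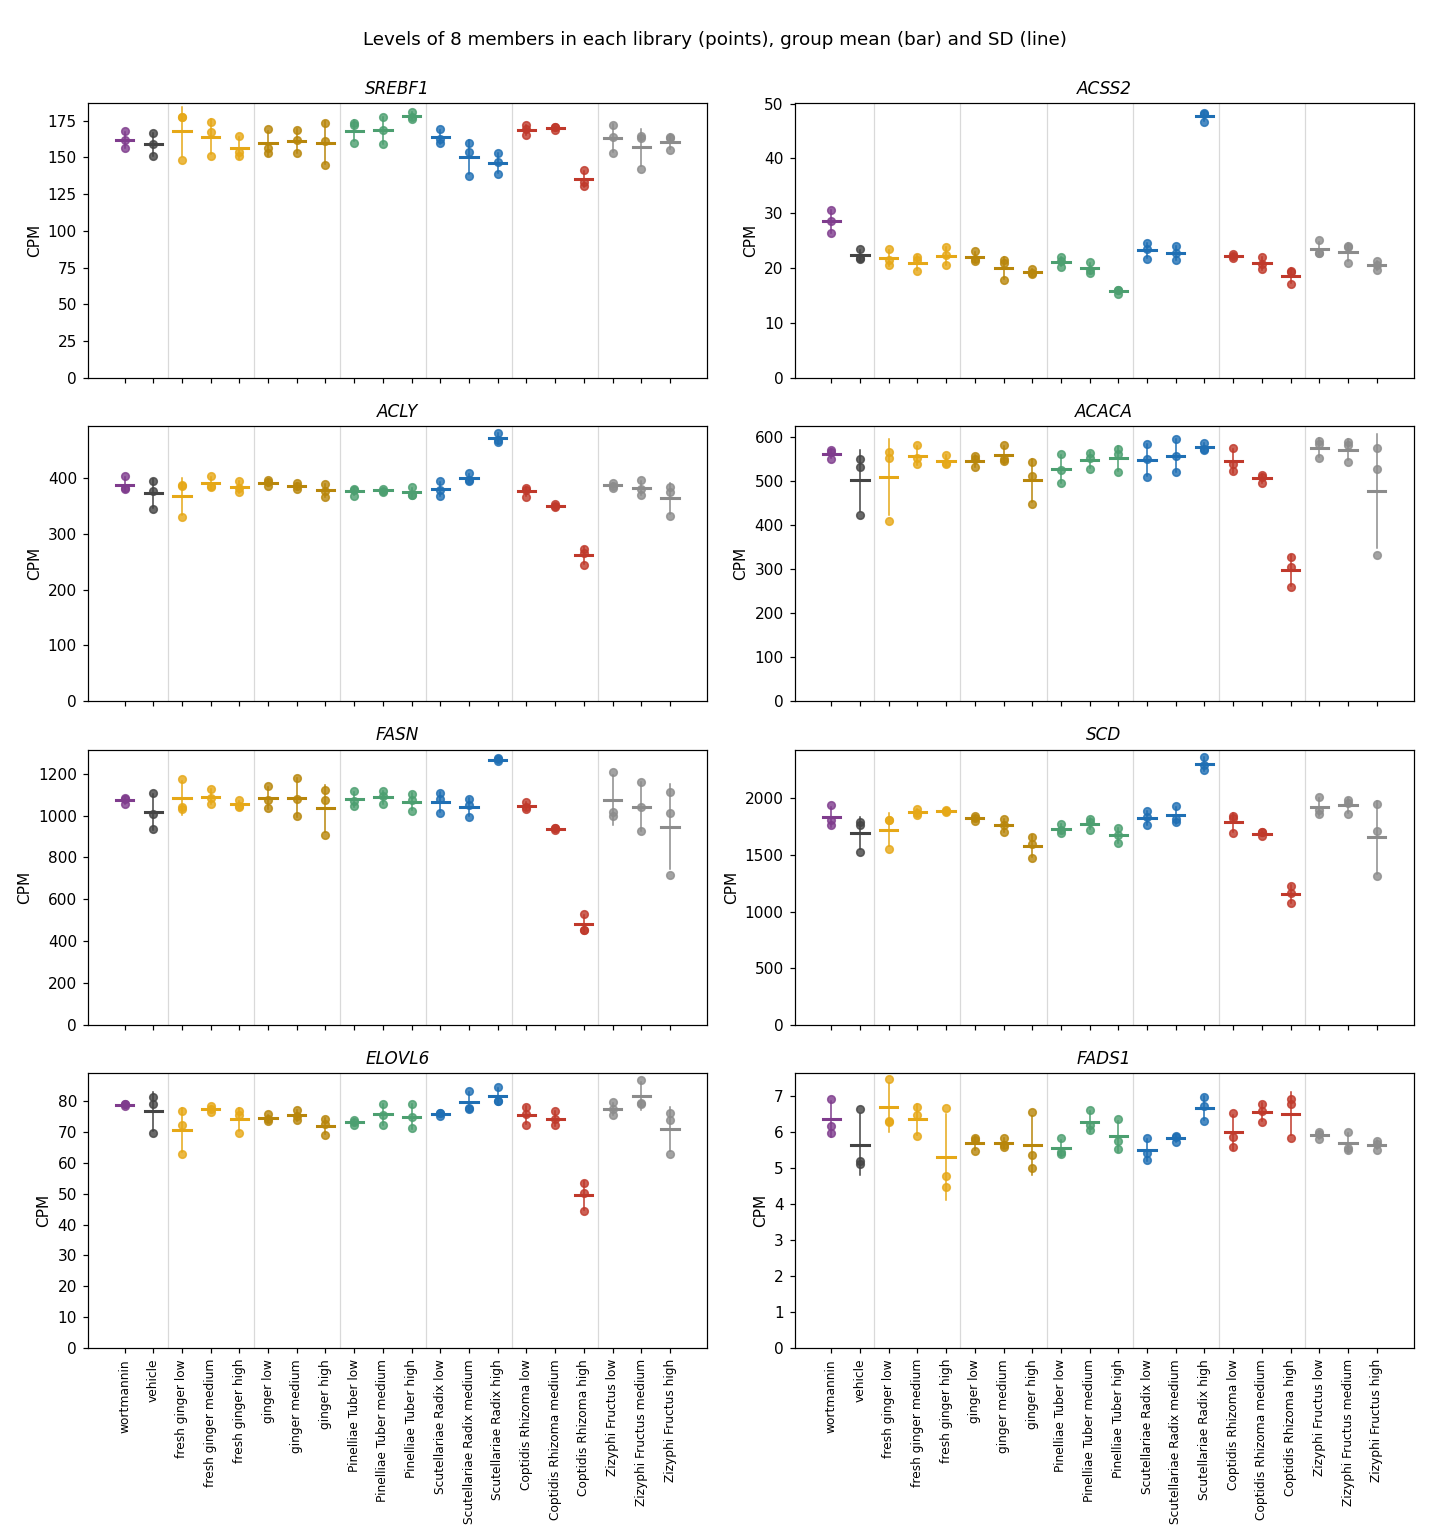
Level of 8 members (CPM) in each of the 60 libraries, 1 panel per gene, with wortmannin, vehicle and then each extract at its low, medium and high dose along the axis; points are libraries, bars the mean of 3 and lines the SD. FASN lies at 455 to 529 CPM in Coptidis Rhizoma high and ACSS2 reaches 46.7 to 48.2 CPM in Scutellariae Radix high; ACSS2 is lowest in Pinelliae Tuber high, at 15.4 to 16.0 CPM, and FASN spans 718 to 1110 CPM in Zizyphi Fructus high.

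The high-against-low changes of both extracts differed from each other. Coptidis Rhizoma minus Scutellariae Radix called 6 of the 9 members, all with the change of Coptidis Rhizoma lower, where 38.8% of all genes were called and 17.8% were called lower. The difference was -1.38 ± 0.13 for FASN, -1.29 ± 0.09 for ACSS2, -0.96 ± 0.10 for SCD, -0.95 ± 0.16 for ACACA, -0.83 ± 0.07 for ACLY and -0.71 ± 0.09 for ELOVL6 (edgeR adjusted p between 3.51e-16 for ACSS2 and 2.55e-06 for ACACA). SREBF1 differed by -0.15 ± 0.09 (edgeR adjusted p = 0.190), both of its changes being negative, and passed when only the libraries compared were fitted (adjusted p = 0.0365). The doses of these extracts differ, 290 against 11.6 µg/mL for Coptidis Rhizoma and 500 against 20 µg/mL for Scutellariae Radix.

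**Figure D3:**
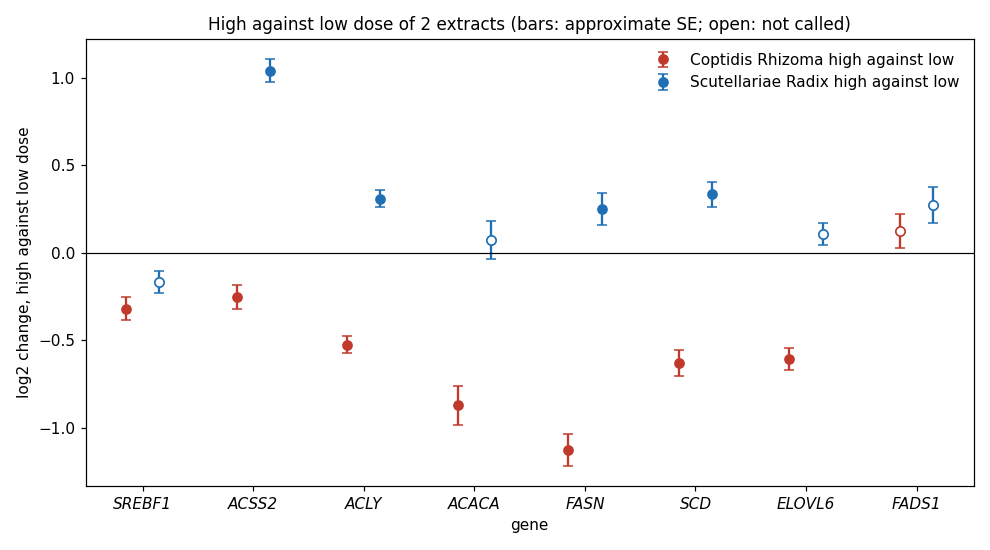
Log2 change of 8 members at the high against the low dose of Coptidis Rhizoma (left point of each pair) and Scutellariae Radix (right point), with approximate SE; open points were not called. FASN is at -1.13 with Coptidis Rhizoma and 0.25 with Scutellariae Radix, and ACSS2 at -0.26 and 1.04.

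The extracts that share a set of codes with these were compared with them as well. The high-against-low change of Coptidis Rhizoma minus that of Zizyphi Fructus called 6 members as lower, where 41.4% of all genes were called and 21.1% were called lower. FASN differed by -0.94 ± 0.13, ACACA by -0.60 ± 0.15, ELOVL6 by -0.48 ± 0.09, ACLY by -0.43 ± 0.07, SCD by -0.42 ± 0.10 and SREBF1 by -0.30 ± 0.09 (edgeR adjusted p between 3.12e-08 for FASN and 0.00648 for SREBF1). ACSS2 did not pass, at -0.06 ± 0.10. With library totals alone, SREBF1 and SCD lost the call (adjusted p = 0.168 and 0.0542), and the median of all genes then lay at 0.12.

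Pinelliae Tuber moved 1 member, ACSS2, and in the opposite direction to Scutellariae Radix. ACSS2 had 16.0, 16.0 and 15.4 CPM at the high dose of Pinelliae Tuber, against 22.0, 20.3 and 21.3 CPM at the low dose. The high-dose libraries lay below all 57 others. The log2 change was -0.42 ± 0.07 (edgeR adjusted p = 0.00124), in a comparison that called 0.0421% of all genes tested. Against the medium dose, where 0.0361% of all genes were called, the change was -0.34 ± 0.07 (edgeR adjusted p = 0.0243), a call that ended in 7 alternatives. Among them were the fits without any 1 of the 3 high-dose libraries (adjusted p from 0.120 to 0.237) and without replicate 1 (0.0938) or replicate 3 (0.588) of the medium dose.

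At 500 µg/mL of each, Scutellariae Radix against Pinelliae Tuber called 5 members, where 16.9% of all genes were called. ACSS2 was 3.02-fold higher (log2 change 1.60 ± 0.07, edgeR adjusted p = 8.69e-25), and SCD (0.46 ± 0.07), ACLY (0.33 ± 0.05) and FASN (0.25 ± 0.09) were higher. SREBF1 was lower, with 139, 153 and 147 CPM in Scutellariae Radix high and 181, 178 and 176 CPM in Pinelliae Tuber high (log2 change -0.29 ± 0.06, edgeR adjusted p = 7.06e-04). The transcript of the regulator was lower in the libraries in which 4 of the enzymes were higher. The high-against-low changes of these extracts differed for ACSS2 (1.46 ± 0.10), SCD (0.38 ± 0.10) and ACLY (0.32 ± 0.07), 3 of 9 members, where 6.3% of all genes were called and 2.97% were called higher. When only the libraries compared were fitted, this difference also passed for FASN (adjusted p = 0.00213) and SREBF1 (0.00502). FASN (adjusted p = 0.0464) lost its call against Pinelliae Tuber with library totals alone (0.186) and without any 1 of the 6 libraries (0.0641 to 0.169).

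With wortmannin, ACSS2 alone among the members was called. It had 28.5, 26.5 and 30.6 CPM with wortmannin and 21.7, 23.5 and 21.8 CPM with vehicle, and the groups did not overlap. The log2 change was 0.35 ± 0.07 (edgeR adjusted p = 1.68e-04), in a comparison that called 20.6% of all genes. Wortmannin and vehicle lie in separate sets of codes, so set and treatment cannot be told apart here. The other members did not pass, with log2 changes between 0.03 for SREBF1 and 0.18 for FADS1, FADS2 aside. Without vehicle replicate 3, FADS1 passed as well (log2 change 0.31, edgeR adjusted p = 0.0400).

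Against vehicle, the high doses gave calls in the same members as against the low dose. Both comparisons use the same high-dose libraries, so the shared calls are not independent. Set and treatment cannot be told apart against vehicle. Coptidis Rhizoma lowered the same 7, where 53.8% of all genes were called and 27.1% were called lower, with log2 changes from -1.09 ± 0.09 for FASN to -0.23 ± 0.06 for SREBF1. Scutellariae Radix raised the same 4, where 20.3% were called and 9.72% were called higher: ACSS2 by 1.09 ± 0.07, SCD by 0.44 ± 0.07, ACLY by 0.34 ± 0.05 and FASN by 0.31 ± 0.09. The last lost its call without vehicle replicate 1 (adjusted p = 0.0900). ACACA passed as higher with Scutellariae Radix when no low-count filter was used (log2 change 0.22, edgeR adjusted p = 0.00978). With Pinelliae Tuber, ACSS2 changed by -0.51 ± 0.07 (edgeR adjusted p = 1.69e-05), where 0.187% were called. FADS1 passed as higher with library totals alone with Coptidis Rhizoma (log2 change 0.29, adjusted p = 0.0125). It also passed without vehicle replicate 3 with both Coptidis Rhizoma (log2 change 0.35, adjusted p = 0.00619) and Scutellariae Radix (0.38, 0.00964), and with Coptidis Rhizoma also without its high replicate 1 (0.28, 0.0281). These comparisons share the vehicle libraries, in which SCD had 1528, 1760 and 1787 CPM and ACSS2 21.7, 23.5 and 21.8 CPM.

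Fresh ginger, ginger and Zizyphi Fructus gave no call for any member. By edgeR, 0 of 9 members were called at the high dose against vehicle with fresh ginger (2.09% of all genes called), ginger (0.789%) and Zizyphi Fructus (0.0181%), with 1, 1 and 0 members at an unadjusted p under 0.05 and 0 by DESeq2 in each. Against the low dose, 0 members were called with fresh ginger (1.79% of all genes called), ginger (0.915%) and Zizyphi Fructus (0.0482%). There 1, 2 and 5 members had an unadjusted p under 0.05, and DESeq2 called 0, 0 and 2. The high-against-low change of ginger minus that of fresh ginger called 0 members and 0% of all genes, with 3 members at an unadjusted p under 0.05. SCD passed there with no low-count filter (adjusted p = 0.00837) and without fresh ginger low replicate 2 (0.0309). SCD had 1600, 1469 and 1662 CPM in ginger high, against 1844, 1799 and 1830 CPM in ginger low, and 1901, 1887 and 1880 CPM in fresh ginger high, against 1552, 1810 and 1810 CPM in fresh ginger low.

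In Zizyphi Fructus high, 1 library lay apart. FASN had 1110, 1014 and 718 CPM, ACACA 575, 527 and 331 CPM, and SCD 1949, 1707 and 1313 CPM at the high dose, and replicate 3 was the lowest for each. The low dose had 1210, 997 and 1017 CPM of FASN, 591, 584 and 551 CPM of ACACA, and 2013, 1899 and 1858 CPM of SCD. Without replicate 1 of the high dose, which leaves replicate 3 with 1 other library, 6 members passed as lower (SCD, ACACA, FASN, ACSS2, ELOVL6 and ACLY), and without replicate 3 none did. Replicate 3 was 1 of the 4 libraries outside Coptidis Rhizoma high with a high share of ribosomal-protein counts. In each of these 4, ACACA, SCD, ELOVL6 and ACLY were the lowest of the library's own group. ACACA was at 331 to 447 CPM in the 4 and at 495 to 595 CPM in the other 53 libraries outside Coptidis Rhizoma high. SCD was at 1313 to 1552 CPM in the 4 and at 1600 to 2366 CPM in the 53, and FASN overlapped, at 718 to 1040 CPM in the 4 and 925 to 1273 CPM in the 53. In Coptidis Rhizoma high, FASN (455 to 529 CPM), SCD (1071 to 1224 CPM) and ACACA (259 to 328 CPM) lay below these 4 as well. The part of the ribosomal-protein share in the drops was not tested. The 4 were picked by a share above 6% outside Coptidis Rhizoma high, so no library of that group could be among them. Its 3 libraries had shares of 6.43 to 7.24% and stayed in the fit without the 4.

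**Figure D4:**
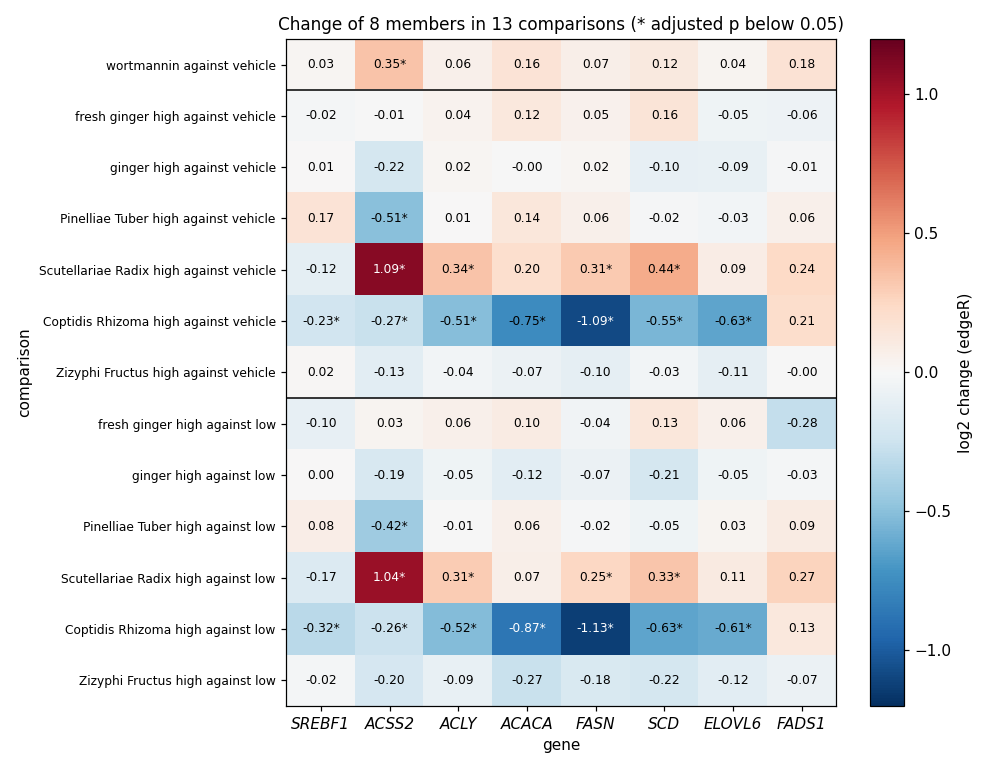
Log2 change of 8 members in 13 comparisons, from wortmannin and the high doses against vehicle (top) to high against low dose (bottom); colour and number give the change and an asterisk marks an adjusted p below 0.05. The row of Coptidis Rhizoma high against low runs down to -1.13 for FASN, and the ACSS2 column holds 1.04 for Scutellariae Radix and -0.42 for Pinelliae Tuber.

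Genes around the pathway, from lists of known function, were counted in high against low dose of these 2 extracts. The lists were chosen with earlier results of these data known, so their counts are descriptions and not tests. Over all genes tested, 27.1% were higher and 25.3% lower with Coptidis Rhizoma, and 7.92% were higher and 8.42% lower with Scutellariae Radix. Cholesterol synthesis and uptake, the branch governed by SREBP-2, moved with the members: 21 of 22 genes tested were lower and 1 higher with Coptidis Rhizoma, and 19 were higher and none lower with Scutellariae Radix. The median change of this list was -0.78 with Coptidis Rhizoma and 0.51 with Scutellariae Radix. Squalene epoxidase (SQLE) averaged 353 ± 7.69 CPM at the high dose of Coptidis Rhizoma and 697 ± 21.8 CPM at the low dose (SD, n = 3 each), and rose by 0.63 ± 0.04 with Scutellariae Radix. DHCR7, which acts late in the pathway, changed by -1.14 ± 0.05 with Coptidis Rhizoma. CYP51A1, a lanosterol demethylase, and STARD4, a sterol carrier, rose by 0.63 ± 0.04 and 0.66 ± 0.06 with Scutellariae Radix.

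Of 11 regulators of SREBP and lipogenesis, 5 were higher and 2 lower with Coptidis Rhizoma, and 2 were higher and none lower with Scutellariae Radix. INSIG1, which holds the SREBP escort in the endoplasmic reticulum and is itself a known SREBP target, averaged 58.0 ± 5.70 CPM at the high dose of Coptidis Rhizoma and 157 ± 5.52 CPM at the low dose. With Scutellariae Radix it averaged 265 ± 5.39 CPM at the high dose and 175 ± 9.50 CPM at the low dose (SD, n = 3 each). Its relative INSIG2 rose by 0.38 ± 0.06 with Coptidis Rhizoma, and so did MID1IP1, a protein that promotes the assembly of acetyl-CoA carboxylase, by 0.49 ± 0.06. MLX, the partner of the sugar-responsive factors MLXIP and MLXIPL, rose by 0.15 ± 0.05 with Scutellariae Radix.

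Of 8 genes tested that supply precursors and NADPH, 5 were higher and 2 lower with Coptidis Rhizoma (median change 0.48), and 4 were higher and 3 lower with Scutellariae Radix (median change 0.27). Malic enzyme 1 (ME1), which makes cytosolic NADPH, rose by 0.79 ± 0.05 with Coptidis Rhizoma and by 0.74 ± 0.05 with Scutellariae Radix. IDH1 and PGD, also sources of NADPH, rose by 0.85 ± 0.05 and 0.61 ± 0.04 with Coptidis Rhizoma. ACSS1, the mitochondrial counterpart of ACSS2, fell with Scutellariae Radix, with a log2 change of -0.58 ± 0.05.

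Among 12 other enzymes of elongation and desaturation, 4 were higher and 5 lower with Coptidis Rhizoma, and 3 were higher and none lower with Scutellariae Radix. FADS3, a relative of FADS1 and FADS2, rose by 1.04 ± 0.08 with Coptidis Rhizoma and by 0.41 ± 0.09 with Scutellariae Radix. HACD3 and TECR, which act in the elongation cycle after the ELOVL step, changed by -0.67 ± 0.05 and -0.37 ± 0.08 with Coptidis Rhizoma. ELOVL1, an elongase of very long chains, and HSD17B12, a reductase of the cycle, rose by 0.43 ± 0.04 and 0.28 ± 0.06 with Scutellariae Radix.

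Of 17 genes of acyl-CoA activation and glyceride synthesis, 7 were higher and 5 lower with Coptidis Rhizoma, and 7 were higher and 1 lower with Scutellariae Radix. GPAT3, which starts triglyceride synthesis, rose with both, by 1.27 ± 0.07 with Coptidis Rhizoma and by 1.38 ± 0.07 with Scutellariae Radix. Of 19 genes of fatty acid oxidation, 8 were higher and 4 lower with Coptidis Rhizoma, and 2 were higher and 5 lower with Scutellariae Radix. CPT1A, which passes fatty acids into mitochondria, rose by 0.31 ± 0.05 with Scutellariae Radix, against the direction of most calls of this list there.

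LXR is a sterol-sensing receptor known to raise SREBF1 and SCD. Of its 5 other targets tested, 4 were higher and none lower with Coptidis Rhizoma, while SREBF1 and SCD were lower there. The sterol exporter ABCG1 averaged 36.9 ± 2.51 CPM at the high dose of Coptidis Rhizoma and 6.60 ± 0.361 CPM at the low dose (SD, n = 3 each), a 5.61-fold rise, and MYLIP rose by 0.70 ± 0.07. With Scutellariae Radix, 1 was higher and 2 lower: ABCA1, another sterol exporter, fell, with a log2 change of -0.85 ± 0.18, and LPCAT3 rose by 0.17 ± 0.05.

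**Figure D5:**
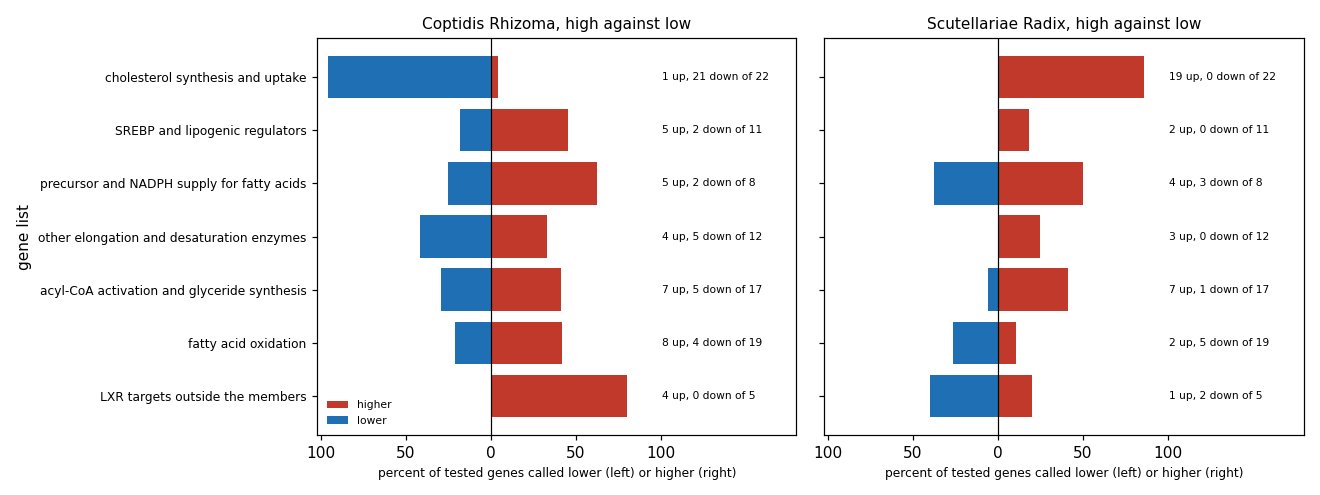
Share of tested genes called higher (red, right) or lower (blue, left) at the high against the low dose, for 7 lists around fatty acid synthesis, with Coptidis Rhizoma on the left and Scutellariae Radix on the right. Cholesterol synthesis and uptake shows 21 of 22 genes lower with Coptidis Rhizoma and 19 of 22 higher with Scutellariae Radix.

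Across the 20 group means, the members did not all share a profile. The log2 level of each member was compared with the mean standardised profile of the other members, as a description over groups that share a cell line and, in part, a set. Pearson's r was 0.91 for ELOVL6, 0.90 for ACACA, SCD and FASN and 0.86 for ACLY, but 0.35 for ACSS2 and SREBF1, -0.14 for FADS1 and -0.40 for FADS2. Coptidis Rhizoma high had the lowest mean profile, at -2.26 standard deviations, and Scutellariae Radix high the highest, at 0.91. The 6 genes outside the list most like the mean profile of the 9 tested members were DAG1 (r = 0.95), SFXN3 (0.94), ERC1 (0.94), PPARGC1B (0.94), RAI1 (0.93) and ANKS1A (0.93). RAI1 overlaps SREBF1 on the other strand. Without Coptidis Rhizoma high, over 19 groups, r was 0.84 for SCD, 0.72 for ACACA, 0.69 for ELOVL6, 0.68 for FASN and ACLY, 0.59 for ACSS2, 0.32 for FADS1 and -0.51 for SREBF1. The 6 genes outside the list then had r between 0.74 for PPARGC1B and 0.86 for ERC1.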

How the data were processed

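The authors deposited expected counts per gene from RSEM 1.3.3. Their other tools were STAR 2.7.3a, Trim Galore 0.6.5 and FastQC 0.11.9, with hg38 (GRCh38) as the build, per the submitters' processing notes. The annotation release is not given in the sources used here. A further 210 columns of the table belong to samples not analysed here. All values were rounded, since 8.75% were not whole. RSEM divides reads between genes: 85% of the values of SREBF1 and 95% of those of ACLY were not whole, while all values of FASN, ACACA and ACSS2 were. A reference of gene names gave symbols to 56558 of 60675 genes, and GENCODE release 29 gave positions and exonic lengths.

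The main model was edgeR's robust quasi-likelihood fit (edgeR 4.0.16, R 4.3.3) on TMM-scaled counts of the 16609 genes that passed filterByExpr, with 20 group means over 60 libraries and 40 residual degrees of freedom. P-values were adjusted within each comparison (Benjamini-Hochberg), with calls below 0.05. The error given with ± beside a log2 change is approximate: the size of the change over the square root of the F statistic. CPM refer to TMM library sizes. Alternatives were DESeq2 size factors, the DESeq2 1.42.0 Wald test, no low-count filter, fitting only the libraries compared, a replicate block, leaving out libraries singly or 4 together, a linear trend on log10 dose, and, chosen after seeing the data, library totals alone. The fit was tested on simulated data. The members and all lists were chosen with earlier results of these data known. The genes named are all members, up to 3 of each other list by smallest p, and the 6 most like the mean profile; some that this rule names are not reported here.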

Additional observations from a re-analysis of the deposited data

Results flagged for a closer look

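The change at the high against the low dose differed between extracts for several members, each by an interaction term with an edgeR adjusted p below 0.05 and each as a difference of log2 changes. Between Coptidis Rhizoma and Scutellariae Radix the difference was -1.38 for FASN, -1.29 for ACSS2, -0.96 for SCD, -0.95 for ACACA, -0.83 for ACLY and -0.71 for ELOVL6, with the change of Coptidis Rhizoma the lower one in each. Between Coptidis Rhizoma and Zizyphi Fructus it was -0.94 for FASN, -0.60 for ACACA, -0.48 for ELOVL6, -0.43 for ACLY, -0.42 for SCD and -0.30 for SREBF1, again with Coptidis Rhizoma lower. Between Scutellariae Radix and Pinelliae Tuber it was 1.46 for ACSS2, 0.38 for SCD and 0.32 for ACLY, with Scutellariae Radix higher.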

How the results depend on the processing

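The linear trend on log10 dose is not counted in the totals that follow. Of 56 member changes called by edgeR, 47 kept their call in every alternative counted. Of 818 alternative values, 783 kept direction and call, 35 lost the call and 0 reversed. The calls lost were those of FASN in Scutellariae Radix high against low, against vehicle and against Pinelliae Tuber, of ACSS2 in Coptidis Rhizoma and Pinelliae Tuber high against medium, and of SCD, SREBF1 and ACACA in differences between extracts. SCD lost the difference between Scutellariae Radix and Pinelliae Tuber with library totals (adjusted p = 0.0958), and SCD and ACACA lost that between Coptidis Rhizoma and Zizyphi Fructus with only the libraries compared (0.0792 and 0.0610). The cause was not tested. The number of members called was 1 with wortmannin, against 1 to 2 when a library was left out, 2 without vehicle replicate 3 (FADS1 added). With fresh ginger high against low it was 0, against 0 to 1 when a library was left out, 1 (FADS1) without fresh ginger high replicate 1. With ginger high against low it was 0, against 1 (SCD) with no low-count filter. With Zizyphi Fructus high against low it was 0, against 2 with no low-count filter, 2 with the Wald test of DESeq2 and 0 to 6 when a library was left out, 6 without Zizyphi Fructus high replicate 1. Library totals alone put the median of all genes at 0.17 in Coptidis Rhizoma minus Scutellariae Radix and at 0.12 in Coptidis Rhizoma high against medium. Same-numbered libraries correlated by -0.37 to 0.21 after group means were removed, in no comparison with all pairs above 0.1, so the numbers were not taken as pairs. With the replicate block, 3 members in place of 4 were called in Scutellariae Radix high against low, FASN losing its call (adjusted p = 0.0508), and the other counts of high against low and against vehicle were as without it. FADS2 and ELOVL5 had too few counts for a change to be seen. Their highest counts in any library were 15 and 2, over depths of 11.1 M to 34.4 M counts.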
